A study of Saccharomyces cerevisiae with 23 samples.

Results

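The divisions of meiosis in budding yeast (Saccharomyces cerevisiae) were set against the meiotic prophase that comes before them, in a synchronised RNA-seq time course. The division stage is the libraries taken 6.5, 7, 7.5 and 8 h after transfer to sporulation medium, and the prophase plateau is those of 4, 4.25, 4.5, 4.75 and 5 h. These are 9 of the 23 libraries of the series, and they were chosen by their labelled times alone. The library of 10 h was left out of the comparison. Libraries of both stages come from the same strain, in which IME1 and IME4 are each driven by the copper-responsive CUP1 promoter, and both stages had been given 25 mM copper sulphate, as the labels write it, at 2 h in sporulation medium. Both groups therefore carry both promoter replacements and the copper, and no uninduced or unmodified cells of the same times are among them. IME1 encodes the transcription factor that starts the meiotic programme, and IME4 the enzyme that methylates messenger RNA early in it.

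A diploid yeast cell that enters meiosis replicates its DNA, pairs and recombines its chromosomes in prophase, and then divides its nucleus in meiosis I and again in meiosis II while building spores inside the mother cell. The transcription factor Ndt80 drives the exit from prophase by switching on the middle genes, among them the cyclins of the divisions, the polo kinase Cdc5 and many genes of spore formation. Many middle promoters carry the middle sporulation element (MSE), which Ndt80 binds and which the repressor Sum1 can hold shut. Early genes of recombination often carry URS1, the element bound by Ume6, through which Ime1 acts.

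The labels give 1 library per time and do not say that the libraries come from separate cultures. The p-values below therefore measure only the spread among these consecutive times, which hold both library error and any change within a stage. The deposited values are FPKM, fragments mapped to a gene, per length of the gene and per total of mapped fragments. Each library was divided by a size factor, the median of ratios over the 5203 genes above 0 in all 9 libraries. The confidence bounds imply 368883 to 914763 fragments on genes in a division library and 600224 to 1467241 in a prophase library. The 7.5 h library is the shallowest: its median gene rests on 4.17 fragments and 1287 genes are listed at 0 in it. A single small RNA, SNR39B, made up 9.04% to 21.2% of all FPKM in the division libraries and 24.2% to 39.9% in the prophase libraries. Fewer cells in a stage and less RNA per cell cannot be told apart in such bulk samples, and neither can a change in the total RNA per cell.

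The stage markers were chosen after their values were seen, so their calls describe the stages and cannot test the labelled times. All 8 division markers (NDT80, CDC5, CLB1, CLB4, CDC20, SPS4, SPO21 and SSP1) were called higher in the division stage, with summed levels of 12664 to 35866 scaled FPKM, against 32.1 to 167 in the prophase plateau. All 8 prophase markers (HOP1, RED1, ZIP1, DMC1, MEI5, MEK1, HED1 and REC8) were called lower, with summed levels of 228 to 824 in the division stage and 1952 to 2788 in the prophase plateau. Of 4 late spore markers, DIT1, DIT2 and OSW1 were called higher and SPS100 was not, and the 4 summed to 590 to 2240 scaled FPKM in the division stage, against 4.13 to 13.1 in prophase. None of the 6 markers of vegetative cells was called, CLN1 among them being too low to test, and they summed to 10.4 to 26.7 scaled FPKM in the division stage and 16.5 to 34.7 in the prophase plateau. The induced genes themselves were lower in the division stage. IME1 stood at 498, 353, 329 and 303 scaled FPKM in the 4 division libraries in order of time, against 1957, 1585, 720.3, 901 and 1367 in the 5 prophase libraries, with no overlap (log2 change −1.75, limma adjusted p = 0.00175). IME4 fell by less, to 216 ± 75.9 scaled FPKM (SD, n = 4) in the division stage against 475 ± 229 (SD, n = 5) in prophase, and its ranges overlapped. That change was −1.09 on the log2 scale (limma adjusted p = 0.0269), and the call was lost without the library of 4, 7, 7.5 or 8 h, where the change was −0.84, −1.12, −1.01 and −0.92. CUP1-1, a metallothionein gene with a near-identical copy beside it, was not called: it stood at 755 ± 167 in the division stage and 770.0 ± 475 in prophase. All of its 186 bases (100%) lie under another row.

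Nearly as many genes were called higher as lower between the stages. Of 6440 genes with a mean of at least 1 scaled FPKM, limma called 2980 (46.3%), with an adjusted p below 0.05 and a log2 change of 1 or more in size. They were 1388 higher (21.6%) and 1592 lower (24.7%) in the division stage. In 1179 of those called higher the 4 division libraries all lay above the 5 prophase libraries, and in 1283 of those called lower all lay below; over all tested genes, called or not, these shares were 20.3% above and 22.6% below. The measured rises were larger than the falls: a change of at least 2 on the log2 scale was reached by 774 rises and 531 falls, of at least 4 by 209 rises and 20 falls, and of at least 6 by 74 rises and 6 falls. The 2 directions are not alike, because on log2 of scaled FPKM + 1 a fall is limited by the prophase level and a rise is not. Genes called lower had a median of 15.6 scaled FPKM at 5 h. DUT1, at 0 in all 4 division libraries, reads only −3.81. The median was 2.16 among the genes called higher, −1.72 among those called lower and −0.27 over all tested genes. The split between rises and falls rests on the scaling. With FPKM as deposited, the median change of all tested genes was −1.39, 571 of 6505 genes (8.78%) were called higher and 3533 (54.3%) lower, so that rises were 13.9% of the calls in place of 46.6%. Of the rises called with scaling, 568 were also called with FPKM as deposited, as were all 1592 falls, and no gene was called in opposite directions. Changes below are relative to the scaled median. A gene's rise means more of the measured RNA relative to the other genes.

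**Figure D1:**
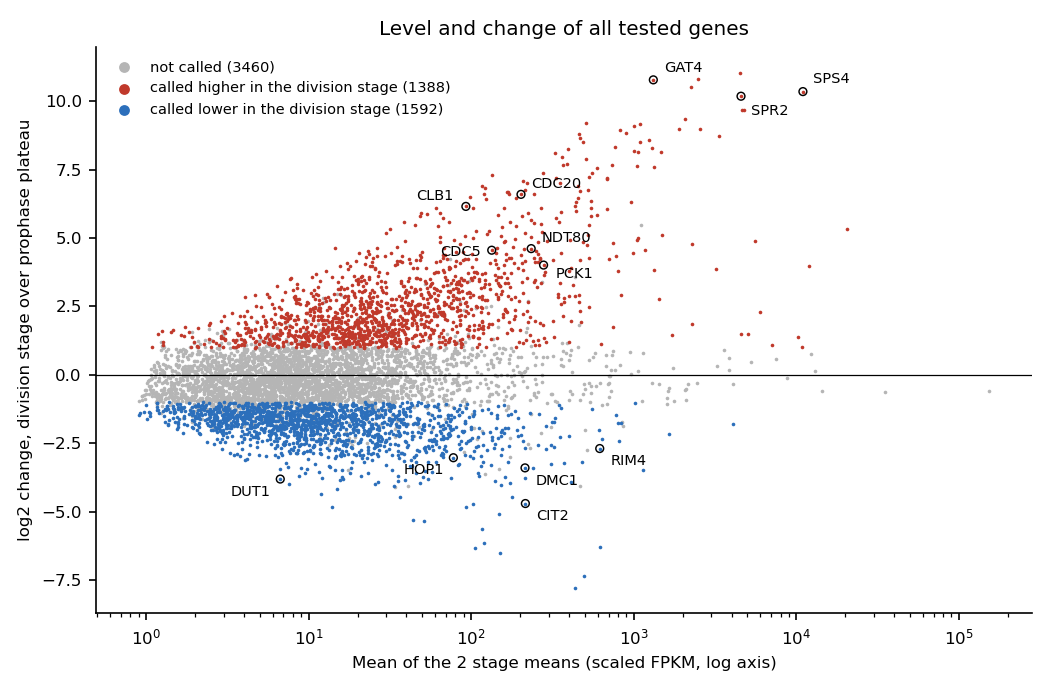
Log2 change of the division stage over the prophase plateau (vertical axis, on log2 of scaled FPKM + 1) against the mean of the 2 stage means (horizontal log axis, scaled FPKM), 1 point per tested gene; red marks the 1388 genes called higher, blue the 1592 called lower and grey the 3460 not called. Circles mark 13 of the genes named in the text, from GAT4 at a log2 change of 10.78 to CIT2 at −4.70, and the rises reach farther from 0 than the falls.

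Named genes were ranked within limits on length, row overlap, stage overlap and level, given with the processing. Their largest rises were of genes low in prophase, with known roles that range from the spore wall to transport and ubiquitin transfer. SPS4, a sporulation-specific gene, stood at 9941, 18435, 33691 and 25689 scaled FPKM at 6.5, 7, 7.5 and 8 h, against 7.78, 3.79, 12.2, 17.3 and 79.7 at 4, 4.25, 4.5, 4.75 and 5 h. Its lowest division library was over its highest prophase library, and the log2 change was 10.35 ± 0.73 (SE, limma adjusted p = 4.32e-06); without the 5 h library it was 10.96. GAT4, which encodes a GATA-type zinc finger protein, stood at 1006, 2916, 4418 and 2216 in the division stage, against 0, 0, 1.33, 0.685 and 0 in prophase, a log2 change of 10.78 ± 0.45 that the prophase libraries at 0 leave dependent on the pseudocount. SPR2, a gene of sporulating cells, had 5885, 11849, 13391 and 5398 scaled FPKM in the division stage, against 3.56, 5.16, 4.27, 6.17 and 17.7 in prophase. RRT5, whose product has no settled function, had 10376, 10750.3, 11449 and 5658 in the division stage, against 4.97, 4.16, 5.20, 17.5 and 52.6 in prophase. Neither SPR2 nor RRT5 overlapped between stages, and their log2 changes were 10.19 and 9.67 (limma adjusted p = 2.69e-07 and 3.72e-06).

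The other 11 of the 15 largest named rises had log2 changes of 8.52 to 9.69, and none of them overlapped between stages. They include PIR5, which encodes a protein of the PIR cell wall family, CWP1, a cell wall mannoprotein, and CTS2, a chitinase-like protein. SPS2 and SPS22 encode related proteins of the spore wall glucan layer, SSP2 an activator of the spore-specific kinase Smk1, and SPO19 a protein of the prospore. UBC11, a ubiquitin-conjugating enzyme, averaged 2477 ± 1246 scaled FPKM (SD, n = 4) in the division stage and 4.97 ± 1.35 (SD, n = 5) in prophase. HXT14, of the hexose transporter family, averaged 925 ± 493 in the division stage and 1.03 ± 1.17 in prophase, and SRD1, of pre-rRNA processing, 1017 ± 466 in the division stage and 0.675 ± 0.640 in prophase. HXT14 shares 23.2% of its length with another row. SPS1, a kinase needed for the spore wall, and SPS2 lie next to each other on chromosome IV, at 1485566 to 1487038 and 1483795 to 1485303 in the coordinates of the files (builds R64 and sacCer3). Among called genes without a standard name and within the same limits, the largest rises were of YPR078C, YDR042C, YGR273C and YEL023C, with log2 changes of 10.83, 9.0, 8.66 and 8.31. YPR078C shares 31.8% of its length with another row. In all, 231 genes called higher and 212 called lower have no standard name. Tested genes without one were not counted, so these counts do not say whether such genes were called more often than others.

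The promoters of 4 genes that rose are shown because they hold the MSE in the 300 bases from 250 before to 50 after the start of the coding sequence. The sequences are from the RefSeq genome (R64), 5′ to 3′ on the strand of the gene, and capitals mark each match to GNCACAAA or GNCGCAAA on either strand. In NDT80 the matches begin 221 and 85 bases before the start (chrVIII:356311-356610, plus strand), in SPS4 192 bases before (chrXV:902825-903124, minus strand), in RRT5 132 and 116 bases before (chrVI:222910-223209, minus strand) and in CDC20 108 and 93 bases before (chrVII:289559-289858, plus strand).
NDT80: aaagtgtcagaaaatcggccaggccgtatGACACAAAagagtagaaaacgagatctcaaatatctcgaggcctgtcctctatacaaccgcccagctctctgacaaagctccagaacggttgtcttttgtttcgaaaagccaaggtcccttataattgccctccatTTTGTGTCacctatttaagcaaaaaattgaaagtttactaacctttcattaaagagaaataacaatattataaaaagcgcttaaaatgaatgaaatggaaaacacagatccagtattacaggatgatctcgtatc
SPS4: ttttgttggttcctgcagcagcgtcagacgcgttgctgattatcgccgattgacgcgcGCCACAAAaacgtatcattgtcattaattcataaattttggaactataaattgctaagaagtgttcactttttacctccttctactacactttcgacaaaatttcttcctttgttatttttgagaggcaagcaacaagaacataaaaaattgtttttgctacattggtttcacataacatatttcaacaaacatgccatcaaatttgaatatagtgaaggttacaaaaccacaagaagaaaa
RRT5: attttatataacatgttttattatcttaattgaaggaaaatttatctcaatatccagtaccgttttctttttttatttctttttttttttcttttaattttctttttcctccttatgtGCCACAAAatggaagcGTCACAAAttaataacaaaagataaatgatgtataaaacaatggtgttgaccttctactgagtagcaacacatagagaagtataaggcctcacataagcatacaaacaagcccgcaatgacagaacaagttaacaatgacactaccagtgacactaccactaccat
CDC20: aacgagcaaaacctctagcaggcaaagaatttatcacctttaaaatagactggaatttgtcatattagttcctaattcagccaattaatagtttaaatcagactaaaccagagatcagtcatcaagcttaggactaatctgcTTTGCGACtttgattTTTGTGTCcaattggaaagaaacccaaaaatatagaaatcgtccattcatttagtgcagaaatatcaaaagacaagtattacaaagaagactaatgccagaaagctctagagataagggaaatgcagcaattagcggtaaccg

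Promoters with this element were more frequent among the rises. Of the 5739 promoters of tested genes, 7.39% held an MSE, against which stood 186 of 1272 promoters of genes called higher (14.6%) and 54 of 1480 of genes called lower (3.65%). Among genes called higher by at least 4 on the log2 scale it was 78 of 191 (40.8%), and among the 15 largest named rises 10, with none among the 12 largest named falls. The shorter CACAAA, which every GNCACAAA match contains, stood in 35.7% of promoters of genes called higher, 11.7% of those called lower and 19.0% of all. By list, the MSE was in 13 of 28 spore wall promoters, 7 of 16 of the prospore membrane and 5 of 12 of the meiotic spindle pole, and in none of the 14 of the chromosome axis and synaptonemal complex or the 15 of cyclins. These are matches of letters, not measured binding.

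NDT80 itself rose across the prophase libraries and stood highest at 6.5 to 7.5 h. It had 549, 547, 513 and 185 scaled FPKM in the division libraries, against 4.84, 10.7, 17.3, 25.4 and 39.4 in the prophase libraries in order of time. The lowest division value, at 8 h, was over the highest prophase value, at 5 h. Means were 448 ± 177 (SD, n = 4) in the division stage and 19.5 ± 13.5 (SD, n = 5) in prophase, a log2 change of 4.62 ± 0.57 (limma adjusted p = 0.00011). PES4 and MIP6, which encode related RNA-binding proteins, were called higher as well: PES4 averaged 1454 ± 715 in the division stage and 6.79 ± 6.26 in prophase, and MIP6 695 ± 295 in the division stage and 4.53 ± 3.09 in prophase, with log2 changes of 7.69 and 7.02 (limma adjusted p = 8.56e-06 and 4.27e-06). The partners of the middle repressor Sum1 were called higher, RFM1 by 2.56 and HST1, its deacetylase, by 1.52 (limma adjusted p = 5.89e-05 and 0.00767), but SUM1 itself was not called, at 11.8, 14.1, 22.2 and 52.7 in the division stage and 15.6, 14.8, 12.8, 15.8 and 17.6 in prophase. The HST1 call was lost with FPKM as deposited, where its change was 0.09. IME2, a meiosis-specific kinase, stood at 680.0, 498, 398 and 131 in the division stage, against 369, 241.2, 226, 289 and 328 in prophase, and was not called. RIM4, which encodes an RNA-binding protein that holds back translation of middle messages until the divisions, had 257, 179, 180.4 and 84.4 in the division stage, against 1257, 986, 1019, 1002 and 1038 in prophase. Its groups did not overlap and the log2 change was −2.69 ± 0.32 (limma adjusted p = 9.02e-05). Over the 16 regulators, 8 were called higher and 3 lower, against 21.6% and 24.7% of all tested genes, and their median change was 0.81, which turned to −0.58 with FPKM as deposited and to −0.52 with scaling by summed FPKM.

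**Figure D2:**
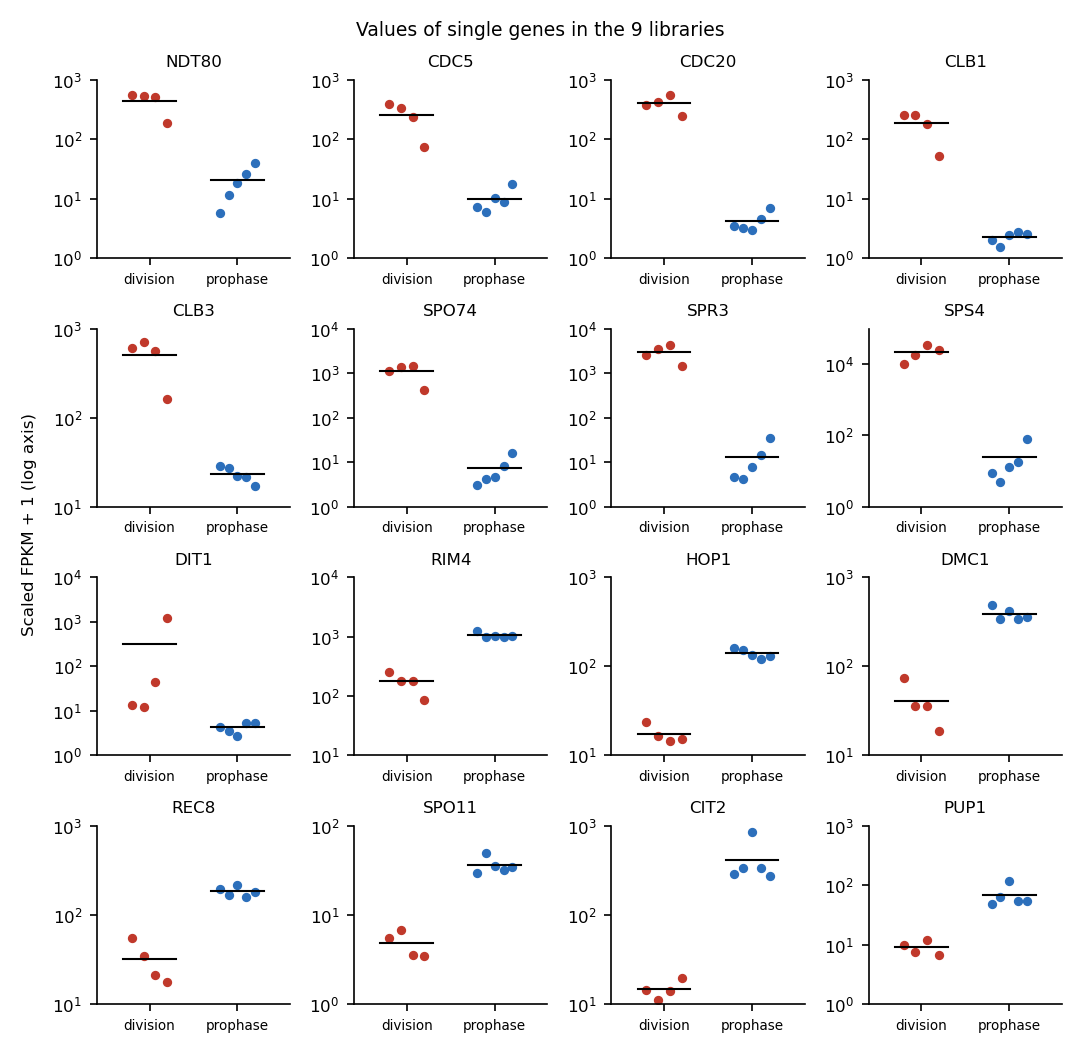
Scaled FPKM + 1 (vertical log axes, which differ between panels) of 16 genes in the 4 division libraries (red, left) and the 5 prophase libraries (blue, right), each in order of time; bars are the stage means. NDT80 rose through the prophase libraries to 39.4 at 5 h, DIT1 is high in the 8 h library alone at 1187, and the 7 genes from RIM4 on, CIT2 and PUP1 included, are lower in every division library.

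The polo kinase and part of monopolin, the complex that ties sister kinetochores together in meiosis I, rose, and cohesin genes fell. CDC5, the polo kinase, had 394, 333, 235 and 72.7 scaled FPKM in the division stage, against 6.14, 5.07, 9.16, 7.89 and 16.7 in prophase, with no overlap and a log2 change of 4.56 ± 0.51 (limma adjusted p = 6.12e-05). HRR25, the casein kinase of the monopolin complex, had 1384, 1346, 927 and 393 in the division stage, against 47.7, 43.5, 40.9, 44.1 and 53.4 in prophase (log2 change 4.28, limma adjusted p = 1.41e-05). MAM1, the meiosis-specific monopolin subunit, had 86.1, 93.7, 72.3 and 26.9 in the division stage, against 2.99, 3.06, 7.98, 6.50 and 11.6 in prophase (log2 change 3.25, limma adjusted p = 0.000278). Both stood above prophase in every division library, but LRS4, another monopolin subunit, was lower in all of them, with means of 5.16 ± 3.08 in the division stage and 15.9 ± 5.75 in prophase (log2 change −1.56, limma adjusted p = 0.00961). SGO1, the shugoshin that shields centromeric cohesin, was called higher by 2.14, separase ESP1 by 2.13 and securin PDS1 by 1.94. PDS1 overlapped between stages, at 526, 358, 181 and 69.2 in the division stage and 58.7, 60.9, 85.6, 43.0 and 44.4 in prophase, and with FPKM as deposited all of these 3 calls were lost, at 0.72, 0.74 and 0.50. REC8, the meiotic kleisin of cohesin, had 54.6, 33.6, 20.1 and 16.6 in the division stage, against 194, 168, 214, 159 and 179.7 in prophase, with no overlap (log2 change −2.65 ± 0.34, limma adjusted p = 0.000139). SMC1 of the cohesin ring, SCC2 of its loader and SPO13, a meiosis I protein that protects cohesion, fell by 2.28, 2.86 and 2.95 on the log2 scale (limma adjusted p = 0.000112, 1.97e-05 and 2.91e-05). Of the 19 genes listed, 7 were called higher and 9 lower, against 21.6% and 24.7% of all tested genes, with a median of −0.43. With FPKM as deposited they were 3 and 10, against 8.78% and 54.3% of all tested genes, with a median of −1.70.

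Nearly every gene of the anaphase promoting complex, the ubiquitin ligase that ends metaphase, was higher in the division stage. Of 17 genes, 15 were called higher and 2 lower, against 21.6% and 24.7% of all tested genes. Their median log2 change was 3.78, against −0.27 over all tested genes. CDC20, the activator for metaphase exit, had 377, 420.3, 559 and 251 scaled FPKM in the division stage, against 2.40, 2.17, 1.99, 3.50 and 6.00 in prophase. No division value came near a prophase value, and the change was 6.60 ± 0.33 (limma adjusted p = 4.82e-07). AMA1, the meiosis-specific activator, had 845, 1437, 2333 and 1399 in the division stage, against 85.7, 96.1, 127, 94.8 and 110.2 in prophase, and CDH1, the activator of G1, averaged 119 ± 58.2 in the division stage and 6.80 ± 0.70 in prophase. Of the core subunits, CDC27 averaged 1016 ± 546 in the division stage and 26.2 ± 8.13 in prophase, APC5 179 ± 69.4 in the division stage and 4.02 ± 0.538 in prophase, and CDC26 1442 ± 829 in the division stage and 42.1 ± 5.38 in prophase (SD, n = 4 and 5). The 3 subunits had log2 changes of 5.11, 5.09 and 4.81 (limma adjusted p = 6.19e-06, 1.18e-06 and 2.38e-05). ACM1, an inhibitor of the Cdh1 form, was also called higher, by 2.64. The exceptions were MND2, a subunit that restrains the Ama1 form in prophase, at 18.7, 10.1, 5.65 and 4.57 in the division stage against 29.4, 28.5, 33.3, 48.0 and 46.3 in prophase, and DOC1, a processivity subunit, at 57.3, 35.7, 9.29 and 13.5 in the division stage against 109, 76.0, 89.4, 108 and 111 in prophase. Neither overlapped between stages, and their log2 changes were −1.97 and −2.05 (limma adjusted p = 0.0017 and 0.00464). With FPKM as deposited the list had 14 calls higher and 2 lower, against 8.78% and 54.3% of all tested genes.

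The B-type cyclins rose apart from CLB2. CLB1, the main cyclin of meiosis I, had 253, 252, 182 and 50.4 scaled FPKM in the division stage, against 0.994, 0.508, 1.43, 1.75 and 1.53 in prophase (log2 change 6.16 ± 0.46, limma adjusted p = 6.53e-06). CLB3, a cyclin whose translation is held to meiosis II, had 601, 706, 559.9 and 159.8 in the division stage, against 27.9, 26.1, 21.0, 20.8 and 16.1 in prophase (log2 change 4.27, limma adjusted p = 3.23e-05). Neither overlapped, and both were lowest at 8 h among the division libraries. CLB4 averaged 129 ± 75.6 in the division stage and 6.81 ± 1.6 in prophase, a log2 change of 3.75 that was 4.39 without the 8 h library. The S-phase cyclins CLB5 and CLB6 averaged 121 ± 57.1 and 96.5 ± 58.4 in the division stage, against 15.8 ± 1.13 and 2.67 ± 0.840 in prophase (log2 change 2.65 and 4.48, limma adjusted p = 0.000505 and 4.84e-05). CLB2, the main mitotic cyclin, stayed low, at 10.6, 7.90, 6.02 and 1.30 in the division stage and 2.84, 3.51, 1.53, 4.84 and 5.85 in prophase, and was not called. CKS1, the small subunit of the cyclin-dependent kinase, was called lower, at 30.0, 5.75, 5.11 and 33.1 in the division stage against 112, 157, 115, 92.7 and 86.3 in prophase (log2 change −2.94, limma adjusted p = 0.00136). Over 14 cyclin and kinase genes, 6 were called higher and 3 lower, against 21.6% and 24.7% of all tested genes. With FPKM as deposited they were 5 and 5 of 15 tested, against 8.78% and 54.3%. Their median of 0.65 turned to −0.64 with FPKM as deposited and −0.58 with scaling by summed FPKM.

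Spindle and kinetochore genes were split between rises and falls with scaling. With FPKM as deposited most were called lower, as were 54.3% of all tested genes. Of 21 genes of spindle motors and microtubule binders, 6 were called higher and 3 lower, against 21.6% and 24.7% of all tested genes, and 2 and 12 with FPKM as deposited. Their median of 0.18 was below 0 under every other scaling tried. STU2, a microtubule polymerase, rose the most, with 569, 654, 472 and 167 in the division stage against 29.2, 19.8, 16.5, 17.3 and 20.6 in prophase (log2 change 4.29, limma adjusted p = 2.15e-05). ASE1, a crosslinker of the spindle midzone, averaged 102 ± 64.3 in the division stage and 10.5 ± 1.84 in prophase. The kinesins CIN8 and KAR3 were called higher, by 2.32 and 2.33, and were not called with FPKM as deposited, at 0.92 and 0.93. SLI15, the scaffold of the Aurora kinase complex, was called lower, at 17.4, 11.4, 4.72 and 5.67 in the division stage against 48.4, 42.8, 42.1, 43.1 and 48.0 in prophase (log2 change −2.25, limma adjusted p = 0.000412). Of 33 kinetochore genes, 8 were called higher and 10 lower, and 2 and 18 with FPKM as deposited. DAD3, of the ring that couples kinetochores to microtubules, averaged 183 ± 66.1 in the division stage and 16.8 ± 10.1 in prophase, and SPC25, of the Ndc80 complex, 64.8 ± 24.7 in the division stage and 10.5 ± 4.80 in prophase (log2 change 3.53 and 2.51, limma adjusted p = 0.000258 and 0.000233). CSE4, the centromeric histone, and AME1, which binds it in the inner kinetochore, were called higher by 1.98 and 2.15, and were not called with FPKM as deposited, at 0.54 and 0.87. NNF1, of the Mtw1 complex, was called lower, at 2.79, 3.57, 0 and 4.10 in the division stage against 32.9, 13.0, 8.60, 14.2 and 11.6 in prophase (log2 change −2.33, limma adjusted p = 0.0042), values that rest on few fragments.

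Genes that build the prospore membrane at the spindle poles rose together. In meiosis II the outer face of each spindle pole body is remodelled into a plaque on which vesicles fuse into the prospore membrane, whose rim carries a leading edge coat. Of 12 genes of the meiotic plaque, the pole body and the leading edge, 11 were called higher and none lower, with a median of 4.30. The shares of all tested genes were 21.6% and 24.7%. With FPKM as deposited 8 were called higher and none lower, against 8.78% and 54.3%. SPO74, of the plaque, had 1141, 1371, 1478 and 409 scaled FPKM in the division stage, against 2.03, 3.12, 3.55, 7.22 and 15.2 in prophase (log2 change 7.37 ± 0.55, limma adjusted p = 6.13e-06). SPO21, also of the plaque, averaged 245 ± 168 in the division stage and 4.94 ± 3.17 in prophase (log2 change 5.16, 5.76 without the 8 h library, limma adjusted p = 8.6e-05). SSP1, of the leading edge coat, had 513, 483, 389.9 and 104 in the division stage, against 1.40, 1.73, 1.72, 3.33 and 6.97 in prophase (log2 change 6.46, limma adjusted p = 1.04e-05). The plaque and coat genes did not overlap between stages and were all lowest at 8 h among the division libraries. IRC10, a leading edge protein, averaged 203 ± 94.3 in the division stage and 1.73 ± 0.617 in prophase, and SPC42, of the pole body core, 312 ± 135 in the division stage and 8.83 ± 2.87 in prophase.

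Of 16 genes of the prospore membrane itself, 13 were called higher and 1 lower, against 21.6% and 24.7% of all tested genes. Their median was 4.70. SPO20, the SNARE by which vesicles fuse to it, had 1002, 1145, 1106 and 354 in the division stage, against 5.17, 6.38, 10.7, 7.79 and 13.8 in prophase, with no overlap (log2 change 6.46, limma adjusted p = 2.29e-06). SPR6, a sporulation gene, had 1201, 2079, 3088 and 2049 in the division stage, against 5.66, 6.20, 8.13, 5.70 and 4.99 in prophase (log2 change 8.14, limma adjusted p = 2.13e-07), and SPO77, which acts in closing the membrane, averaged 127 ± 66.7 in the division stage and 0.901 ± 0.661 in prophase. The member called lower was SPO1, a phospholipase-like protein, at 23.7, 13.3, 23.4 and 10.7 in the division stage against 80.9, 94.6, 129, 74.4 and 83.5 in prophase (log2 change −2.36, limma adjusted p = 0.000137). Of 8 septin genes and partners, 5 were called higher and 1 lower, against the same shares of all tested genes. Septins are filament proteins that run along the membrane as bars. SPR3, a sporulation septin, had 2566, 3481, 4212 and 1423 in the division stage, against 3.61, 3.23, 6.97, 13.2 and 34.7 in prophase (log2 change 8.15 ± 0.62, limma adjusted p = 7.17e-06), and its partner SPR28 averaged 1073 ± 487 in the division stage and 16.3 ± 12.2 in prophase. The vegetative septins CDC3 and CDC10 rose as well, by 4.94 and 4.87 on the log2 scale, as did GIP1, the phosphatase subunit that places the septins, by 7.57 (limma adjusted p = 1.84e-06, 7.54e-06 and 6.07e-07). The member called lower was CDC12, also a vegetative septin, and the lowest log2 change of the list was −1.09.

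Of 28 genes assigned to the spore wall, 24 were called higher and 1 lower, against 21.6% and 24.7% of all tested genes. Their median of 5.74 on the log2 scale was the highest of the 27 lists. The wall is laid down in layers of mannan, glucan, chitosan and dityrosine. CDA2, a chitin deacetylase of the chitosan layer, had 802, 663, 553 and 189.8 scaled FPKM in the division stage, against 0.410, 0.419, 3.24, 1.98 and 7.17 in prophase (log2 change 7.39 ± 0.60, limma adjusted p = 9.59e-06). OSW1, of the outer wall, had 568, 927, 1460.3 and 916 in the division stage, against 0.476, 0.486, 1.71, 2.30 and 4.16 in prophase (log2 change 8.51, limma adjusted p = 4.82e-07). SMK1, the kinase that coordinates wall assembly, averaged 289 ± 119.9 in the division stage and 3.67 ± 0.585 in prophase. Division and prophase values were far apart in all of these. The single member called lower was UBX4, known as a cofactor of the Cdc48 segregase and not as a wall component, with means of 12.8 ± 12.4 in the division stage and 55.2 ± 11.4 in prophase (log2 change −2.52, limma adjusted p = 0.00491).

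DIT1 and DIT2, of dityrosine synthesis, were highest at 8 h among the division libraries. DIT1, the enzyme of the first step of dityrosine synthesis, had 12.8, 11.2, 42.6 and 1187 scaled FPKM at 6.5, 7, 7.5 and 8 h, against 3.21, 2.52, 1.69, 4.45 and 4.41 in prophase. Its neighbour in the pathway DIT2 had 8.29, 20.0, 19.1 and 137 in the division stage, against 0, 0.365, 0.171, 0.247 and 0.171 in prophase, and 37.6% of its length lies under another row. Both were called higher, by 3.72 and 4.52 (limma adjusted p = 0.0204 and 0.000266), and the size rests on single libraries. Without the 8 h library the changes were 2.24 and 3.74, and that of DIT1 was 4.38 without 6.5 h and 4.44 without 7 h. With FPKM as deposited DIT1 was not called (2.45). At 10 h DIT1 was at 1365 scaled FPKM, and SPS100, a late spore wall gene at 0.964, 0.616, 3.28 and 0 in the division stage and 1.55, 1.39, 0.557, 2.16 and 4.39 in prophase, was at 111. In all, 6 genes called higher were at least 4-fold higher at 8 h than in the best of the other division libraries. ICS2, SDD1 and YLR012C were among them, chosen by that value. ICS2 had 7.97, 11, 6.78 and 118 scaled FPKM in the division stage, against 1.16 ± 0.556 (mean ± SD, n = 5) in prophase. SDD1 had 24.1, 25.9, 33.3 and 188 in the division stage against 1.96 ± 1.62 in prophase, and YLR012C 7.45, 52.3, 228 and 1489 in the division stage against 1.13 ± 1.24 in prophase. Without the 8 h library their changes were 2.17, 3.48 and 4.67, in place of 3.08, 4.16 and 5.92, and that of YLR012C was 7.16 without 6.5 h.

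**Figure D3:**
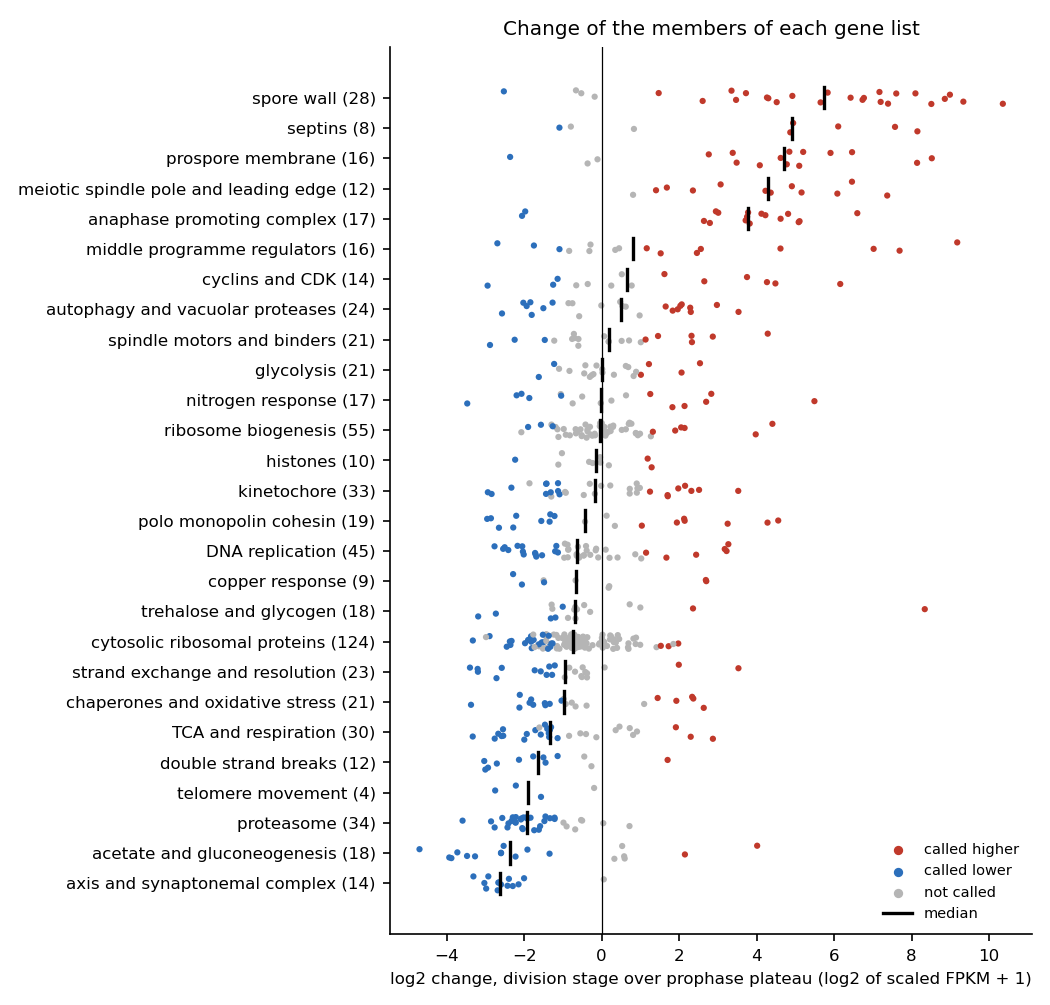
Log2 change (horizontal axis, division stage over prophase plateau) of the tested members of 27 gene lists, ordered by list median; the number of tested members follows each name, red points were called higher, blue points lower and grey points neither. Medians (black bars) run from −2.62 for the axis and synaptonemal complex to 5.74 for the spore wall, beside −0.27 over all tested genes.

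Most genes of the recombination programme of prophase were lower in the division stage. Chromosome axis and synaptonemal complex genes, which build the protein scaffold between paired chromosomes, had 13 of 14 members called lower and none higher, with a median of −2.62. The shares of all tested genes were 24.7% lower and 21.6% higher. HOP1, an axis protein, had 22.8, 15.4, 13.4 and 14.1 scaled FPKM in the division stage, against 160.0, 153, 134, 119 and 128 in prophase, with no overlap (log2 change −3.03 ± 0.23, limma adjusted p = 7.34e-06). RED1, its axis partner, had 66.1, 33.4, 24.6 and 25.0 in the division stage, against 285, 312, 272, 231 and 239.9 in prophase (log2 change −2.92, limma adjusted p = 4.8e-05). MEK1, the kinase that directs repair to the homolog, had 38.9, 23.0, 17.8 and 11.8 in the division stage, against 219, 149.6, 135, 163 and 209 in prophase (log2 change −2.98, limma adjusted p = 6.83e-05). Each of these was lower in every division library than in any prophase library. ZIP1, the central element, averaged 34.6 ± 13.2 in the division stage and 167 ± 19.2 in prophase, and PCH2, an ATPase that remodels Hop1, 16.0 ± 10.3 in the division stage and 149.9 ± 31.0 in prophase (log2 change −2.29 and −3.31, limma adjusted p = 8.31e-05 and 8.31e-05).

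Of these 14 promoters 7 hold the URS1 core GGCGGC on either strand, as do 3 of the 4 of telomere movement genes, against 5.05% of all promoters of tested genes. It was in 109 of the 1480 promoters of genes called lower (7.36%) and in 52 of the 1272 of genes called higher (4.09%). The promoters of HOP1 (chrIX:226352-226651, plus strand; match 171 bases before the start) and MEK1 (chrXV:996462-996761, minus strand; 148 and 134 bases before) are shown as cases, with the core in capitals and the window and source as above. No match to the MSE stands in either window.
HOP1: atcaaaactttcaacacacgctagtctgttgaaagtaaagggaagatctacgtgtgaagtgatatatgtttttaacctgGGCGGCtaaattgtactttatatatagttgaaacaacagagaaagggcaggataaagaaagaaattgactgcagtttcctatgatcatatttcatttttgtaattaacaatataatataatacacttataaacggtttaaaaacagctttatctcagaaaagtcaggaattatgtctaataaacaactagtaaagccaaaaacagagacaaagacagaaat
MEK1: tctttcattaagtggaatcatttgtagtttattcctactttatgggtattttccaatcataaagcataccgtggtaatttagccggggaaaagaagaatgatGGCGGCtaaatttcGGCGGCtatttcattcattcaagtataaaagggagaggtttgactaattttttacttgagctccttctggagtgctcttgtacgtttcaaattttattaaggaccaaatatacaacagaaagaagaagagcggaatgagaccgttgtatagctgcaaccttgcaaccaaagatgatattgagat

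Of 12 genes that make double-strand breaks, 9 were called lower and 1 higher, against 24.7% and 21.6% of all tested genes. Their median was −1.63. SPO11, the nuclease that cuts, had 4.53, 5.78, 2.57 and 2.49 in the division stage, against 28.5, 48.2, 34.2, 31.1 and 33.4 in prophase, with no overlap (log2 change −2.93, limma adjusted p = 2.44e-05). Its partners REC114, MEI4 and REC104 averaged 22.4 ± 11.6, 9.40 ± 3.16 and 24.8 ± 13.3 in the division stage, against 182 ± 51.8, 80.1 ± 12.3 and 146 ± 26.5 in prophase. SAE2, which frees Spo11 from the cut ends, was the member called higher, but its stages overlapped, at 41.8, 54.5, 27.5 and 6.93 in the division stage and 11.9, 6.09, 5.97, 6.57 and 7.25 in prophase (log2 change 1.70, limma adjusted p = 0.0182). That call was lost without 6.5 h (1.48) or 7 h (1.36) and with FPKM as deposited (0.36), and without 8 h the change was 2.29.

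Strand exchange and resolution genes had 11 of 23 members called lower and 2 higher, against 24.7% and 21.6% of all tested genes, with a median of −0.95. As deposited, 21 were called lower and 1 higher, against 54.3% and 8.78% of all tested genes. DMC1, the meiotic recombinase, had 73.0, 35.2, 35.0 and 17.5 scaled FPKM in the division stage, against 484, 339.8, 422, 342 and 355 in prophase, with no overlap (log2 change −3.40 ± 0.37, limma adjusted p = 5.02e-05). Its accessory factors HOP2 and MND1 fell by 3.20 and 3.19 on the log2 scale, and RAD52, the mediator shared with mitotic repair, by 2.71 (limma adjusted p = 0.000134, 9.97e-06 and 1.72e-05). MEI5, another Dmc1 partner, averaged 156 ± 85.6 in the division stage and 476 ± 139 in prophase. HED1, a meiosis-specific regulator of recombination, averaged 107 ± 99.8 in the division stage and 512 ± 131 in prophase, with 49.1% of its length under another row. Against the rest of the list, EXO1, a nuclease that also acts at crossovers, had 140.3, 109, 71.7 and 21.5 in the division stage, against 5.85, 4.53, 3.52, 4.58 and 8.14 in prophase (log2 change 3.53, limma adjusted p = 0.000246). YEN1, a resolvase that cuts joint molecules in anaphase II, had 26.4, 24.9, 23.4 and 6.37 in the division stage, against 3.77, 4.53, 2.92, 3.45 and 4.26 in prophase (log2 change 1.99, limma adjusted p = 0.00182), and was not called with FPKM as deposited (0.71). Of the 4 telomere movement genes, which link chromosome ends to the nuclear envelope, NDJ1, CSM4 and MPS3 were called lower, with log2 changes of −1.57, −2.75 and −2.21.

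The largest falls among named genes within the limits on length, row overlap, stage overlap and level include 4 enzymes of acetate use. CIT2, MLS1, YAT2 and CAT2 are among the 12 with the largest changes there. Of all genes called lower, 10 fell by at least 5 on the log2 scale, and these lay outside those limits. Yeast in sporulation medium lives on acetate, which enters the glyoxylate cycle and, as carnitine ester, the mitochondria. CIT2, the peroxisomal citrate synthase, had 13.4, 10.1, 13.0 and 18.6 scaled FPKM in the division stage, against 286, 332, 862, 334 and 272 in prophase. The highest prophase value was at 4.5 h, no values overlapped, and the change was −4.70 ± 0.36 (limma adjusted p = 7.82e-06). MLS1, malate synthase, had 25.4, 13.8, 15.7 and 26.3 in the division stage, against 185, 273, 315, 435 and 431 in prophase, and the carnitine acetyltransferases YAT2 and CAT2 averaged 17.3 ± 4.29 and 22 ± 7.34 in the division stage, against 263 ± 26.6 and 299 ± 79.7 in prophase (log2 change −3.93, −3.88 and −3.72). PDH1 and CIT3, neighbours on chromosome XVI that encode a methylcitrate dehydratase and a citrate synthase of the mitochondria, averaged 20.4 ± 15.5 and 53.4 ± 28.4 in the division stage, against 287 ± 55.4 and 768 ± 245 in prophase. PEX21, of import into peroxisomes, averaged 1.39 ± 0.987 in the division stage and 31.1 ± 9.74 in prophase. Other large falls were of GCN4, the activator of amino acid synthesis, at 6.42, 5.96, 0 and 0.643 in the division stage against 36.1, 50.3, 35.4, 51.4 and 66.1 in prophase, SRV2, an actin regulator, at 4.99 ± 3.70 in the division stage against 65.9 ± 21.1 in prophase, and AIM11, named for altered inheritance of mitochondria, at 0.490 ± 0.980 in the division stage against 17.0 ± 7.19 in prophase. DUT1, the dUTPase, was listed at 0 in all 4 division libraries and at 17.5, 12.2, 17.1, 11.2 and 9.02 in prophase, and YPL278C, without a standard name, was listed at 0 in all 4 division libraries and at 14.6, 19.4, 18.9, 9.74 and 13.5 in prophase.

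Of 18 genes of acetate use and gluconeogenesis, 12 were called lower and 2 higher, against 24.7% and 21.6% of all tested genes. Their median was −2.38. The members called higher are enzymes of the same route: PCK1, the carboxykinase of gluconeogenesis, had 255, 425, 873 and 546 in the division stage, against 15.2, 14.4, 34.9, 40.8 and 59.6 in prophase (log2 change 4.01 ± 0.49, limma adjusted p = 0.000112), and ICL1, isocitrate lyase, 154, 293, 481 and 293 in the division stage, against 51.9, 47.4, 60.7, 81.9 and 80.6 in prophase (log2 change 2.15, limma adjusted p = 0.00055). Both stood above prophase in every division library, and ICL1 was not called with FPKM as deposited (0.70). Of 30 genes of the citric acid cycle and respiration, 17 were called lower and 3 higher, against the same shares, with a median of −1.34. With FPKM as deposited they were 21 and 1, against 54.3% and 8.78% of all tested genes. IDH1, isocitrate dehydrogenase, averaged 7.10 ± 3.33 in the division stage and 79.2 ± 26.3 in prophase, SDH3, of succinate dehydrogenase, 37.8 ± 13.8 in the division stage and 238 ± 41.5 in prophase, and ATP2, of the ATP synthase, 14.9 ± 4.48 in the division stage and 94.2 ± 23.5 in prophase. Between isocitrate and succinate dehydrogenase in the cycle, KGD1 and KGD2, of oxoglutarate dehydrogenase, were called higher, at 208 ± 78.8 and 354 ± 99.6 in the division stage against 26.7 ± 7.43 and 91.8 ± 21.2 in prophase (log2 change 2.87 and 1.92, limma adjusted p = 8.39e-05 and 0.000438). KGD2 was not called with FPKM as deposited (0.47).

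Storage carbohydrate genes had 5 of 18 members called lower and 2 higher, against 24.7% and 21.6% of all tested genes. With FPKM as deposited they were 14 and 1, against 54.3% and 8.78%. The highest change in the list was that of SGA1. SGA1, the glucoamylase that breaks down glycogen in sporulating cells, had 603, 1271, 2539 and 1703 scaled FPKM in the division stage, against 2.92, 2.77, 3.44, 2.86 and 3.97 in prophase, with no overlap (log2 change 8.34 ± 0.38, limma adjusted p = 2.69e-07). The glycogenin genes GLG1 and GLG2, which prime glycogen synthesis, were called in opposite directions, at 29.4 ± 6.23 and 8.94 ± 4.72 in the division stage, against 5.01 ± 1.61 and 82.7 ± 6.50 in prophase. PGM2, phosphoglucomutase, averaged 5.92 ± 3.51 in the division stage and 40.2 ± 7.76 in prophase. GLG1 was not called with FPKM as deposited (1.04, limma adjusted p = 0.0568). Of 21 glycolysis genes, 4 were called higher and 2 lower, against 21.6% and 24.7% of all tested genes, with a median of 0.01. With FPKM as deposited they were 1 and 10 of 20 tested, against 8.78% and 54.3%. TDH2, whose near-identical copy TDH3 can share its reads, was called higher, at 32.3 ± 14.7 in the division stage and 4.37 ± 0.912 in prophase, and HXK1, a hexokinase, lower, at 4.52 ± 1.15 in the division stage and 16.2 ± 4.54 in prophase.

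Proteasome genes fell with no member called higher: 27 of 34 were called lower, against 24.7% of all tested genes, with a median of −1.93. PUP1, of the catalytic core, had 9.01, 6.57, 11 and 5.67 scaled FPKM in the division stage, against 47.6, 61.3, 115, 54.0 and 53.5 in prophase, with no overlap (log2 change −2.85 ± 0.31, limma adjusted p = 5.67e-05). PRE9, another core subunit, averaged 3.04 ± 4.17 in the division stage and 33.2 ± 7.59 in prophase (log2 change −3.59, −4.21 without the 6.5 h library). The regulatory subunits RPT4 and RPN3 averaged 9.80 ± 3.60 and 12.2 ± 7.70 in the division stage, against 61.5 ± 11.4 and 81.0 ± 29.4 in prophase (log2 change −2.56 and −2.76, limma adjusted p = 4.16e-05 and 0.000609). RPN4, the transcription factor that drives proteasome genes, had 21.0, 11.7, 13.7 and 8.31 in the division stage, against 46.8, 56.9, 66.1, 51.8 and 62.5 in prophase (log2 change −2.04, limma adjusted p = 0.000199).

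Autophagy genes moved in both directions. Of 24 autophagy and vacuolar protease genes, 9 were called higher and 7 lower, against 21.6% and 24.7% of all tested genes, with a median of 0.51. As deposited, 2 of 25 members tested were called higher and 12 lower, against 8.78% and 54.3% of all tested genes, and the median was −0.77. ATG8, which coats the autophagosome membrane, had 6029.8, 9012, 12544 and 12366 scaled FPKM in the division stage, against 2009.5, 2091, 2250.3, 1660.1 and 1769.6 in prophase (log2 change 2.30, limma adjusted p = 0.000125). ATG3, which attaches Atg8 to lipid, averaged 409 ± 210.4 in the division stage and 29.4 ± 4.58 in prophase, and ATG32, the receptor for mitochondria, 254 ± 66.7 in the division stage and 30.7 ± 4.43 in prophase. All 3 stood above prophase in every division library, although ATG8 fell short of the fold limit under all 3 other scalings, at 0.84 with FPKM as deposited, 0.91 with summed FPKM and 0.97 with quantile normalisation. PRB1, the vacuolar protease B, was lower, at 90.0, 44.7, 58.4 and 115 in the division stage against 481, 379, 425, 447 and 445 in prophase (log2 change −2.57, limma adjusted p = 7.71e-05). Chaperone and oxidative stress genes had 10 of 21 members called lower and 5 higher, against 24.7% and 21.6% of all tested genes. With FPKM as deposited they were 15 and 1, against 54.3% and 8.78%. HSP42, a small heat shock protein, averaged 60.5 ± 18.5 in the division stage and 260.0 ± 28.0 in prophase, and TRX2, a thioredoxin, 1.95 ± 2.26 in the division stage and 25.0 ± 16.9 in prophase. The chaperones SSA3 and SSA4, whose similar sequences can share reads, and the catalase CTT1 were called higher by 2.34, 2.37 and 2.64. The calls of SSA3 and SSA4 were lost with FPKM as deposited (0.88 and 1.00).

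DNA replication genes had 15 of 45 members called lower and 6 higher, against 24.7% and 21.6% of all tested genes, with a median of −0.64. As deposited, 34 were called lower and 3 higher, against 54.3% and 8.78% of all tested genes. POL2, the leading-strand polymerase, averaged 4.31 ± 1.77 in the division stage and 28.7 ± 2.64 in prophase, MCM6, of the helicase, 3.10 ± 2.13 in the division stage and 19.0 ± 1.95 in prophase, and RFA1, which coats single-stranded DNA, 7.36 ± 2.73 in the division stage and 45.2 ± 8.60 in prophase. ORC1 and ORC3, of the origin recognition complex, and SLD5, of the GINS complex, were called higher, at 109 ± 52.7, 34.6 ± 16.4 and 54.9 ± 21.3 in the division stage against 17.0 ± 2.54, 2.40 ± 0.673 and 4.80 ± 1.86 in prophase. ORC1 was not called with FPKM as deposited (1.03, limma adjusted p = 0.0703). Of 10 histone genes 2 were called higher and 1 lower, against 21.6% and 24.7% of all tested genes. With FPKM as deposited none was called higher and 8 lower, against 8.78% and 54.3%. The member called lower with scaling, HTB2, 1 of the pair of H2B genes, which share most of their sequence, had 11.7, 9.93, 13.2 and 8.56 in the division stage, against 116, 74.3, 53.9, 38.3 and 25.7 in prophase, with values that declined across the plateau (log2 change −2.23, limma adjusted p = 0.00115).

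Genes of copper, nitrogen and translation gave mixed or few calls. CTR1, the copper importer, and FRE1, a metal reductase, were called higher, at 76.3 ± 40.9 and 37.5 ± 16.4 in the division stage against 10.1 ± 3.26 and 4.43 ± 0.672 in prophase, and CRS5, a metallothionein, lower, at 34.2 ± 11.6 in the division stage against 146 ± 51.3 in prophase. CTR1 shares 30.1% of its length with another row. Of 9 copper response genes 2 were called higher and 3 lower, against 21.6% and 24.7% of all tested genes. With FPKM as deposited they were 2 and 5, against 8.78% and 54.3%. GLN1, glutamine synthetase, had 385, 767, 1701 and 1334 in the division stage, against 12.9, 14.1, 37.9, 17.2 and 21.3 in prophase (log2 change 5.49 ± 0.47, limma adjusted p = 1.33e-05), and GDH1, the glutamate dehydrogenase that takes up ammonium, 6.78, 3.30, 3.30 and 4.62 in the division stage, against 41.8, 39.3, 61.5, 85.6 and 75.8 in prophase (log2 change −3.47, limma adjusted p = 1.91e-05). These enzymes of ammonium assimilation moved apart without overlap, in a list of 17 nitrogen response genes with 6 called higher and 5 lower, and 4 and 9 with FPKM as deposited. GAP1, the general amino acid permease, averaged 2.94 ± 0.801 in the division stage and 13.5 ± 3.34 in prophase. Of 124 tested genes of cytosolic ribosomal proteins, 3 were called higher and 22 lower, below the share of all tested genes in both directions, with a median of −0.74. Many have near-identical copies that can share reads. The list was also near the pseudocount of 1, with median levels of 1.71 to 6.38 scaled FPKM in the prophase libraries and 0 to 2.79 in the division libraries. At such levels few calls do not show that the genes held steady. With FPKM as deposited 59 were called lower, against 54.3% of all tested genes. RPL11B was listed at 0 in all 4 division libraries and at 1.87, 5.75, 8.75, 10.8 and 9.16 in prophase. Of 55 ribosome biogenesis genes, 6 were called higher and 3 lower, against 21.6% and 24.7% of all tested genes, with a median of −0.04. This list was low too, with median levels of 1.86 to 3.14 scaled FPKM in the prophase libraries and 1.17 to 8.47 in the division libraries. As deposited, 2 of 59 members tested were called higher and 19 lower, with a median of −1.01, and with quantile normalisation 12 and 2 of 57, with a median of 0.35. The helicases DBP3 and DRS1 were the largest rises, at 46.1 ± 25.9 and 30.1 ± 8.94 in the division stage against 0.962 ± 0.241 and 0.948 ± 0.382 in prophase.

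Within the division stage most rises were highest at 7 or 7.5 h. Of the 1388 genes called higher, 248 were highest at 6.5 h, 585 at 7 h, 458 at 7.5 h and 97 at 8 h. Over all 6440 tested genes these numbers were 1814, 1411, 1251 and 1964. At 8 h 255 of the genes called higher were at least 4-fold below their best earlier division library, a count not made over all tested genes. Of the 1592 genes called lower, 209 were lowest at 6.5 h, 450 at 7 h, 568 at 7.5 h and 365 at 8 h. Ties are counted at the earliest time, so a gene at 0 in all 4 libraries, such as DUT1, counts at 6.5 h. For the falls no such count was made over all tested genes. The 7.5 h library, where the falls were most often lowest, is also the shallowest. Without it 1322 genes were called higher and 1452 lower, and without the 8 h library 1549 and 1900.

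**Figure D4:**
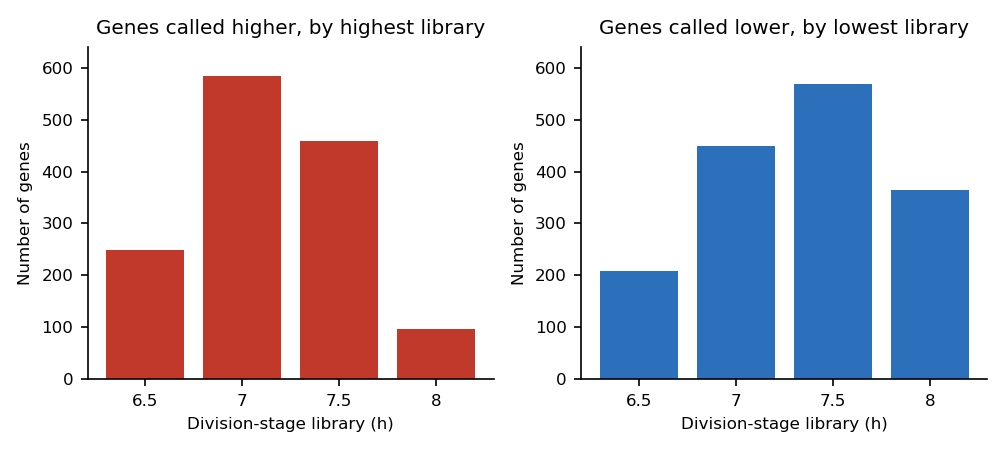
Number of genes (vertical axis) by the division library, 6.5 to 8 h (horizontal axis), in which a gene called higher was highest (left, red) or a gene called lower was lowest (right, blue). Rises peak at 7 h with 585 genes and falls at 7.5 h with 568, and 97 rises are highest at 8 h. Ties are counted at the earliest library.

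The libraries between the stages showed the rise already under way. The median of the genes called higher was 8.29 scaled FPKM at 5 h, 9.70 at 5.25 h, 12.3 at 5.5 h, 17.4 at 5.75 h, 24.6 at 6 h, 48.7 at 6.5 h, 61.7 at 7 h, 55.1 at 7.5 h, 30.2 at 8 h and 16.0 at 10 h. For the genes called lower it was 15.6 at 5 h, 8.32 at 6 h, 4.82 at 6.5 h, 3.43 at 7 h, 2.95 at 7.5 h, 4.57 at 8 h and 9.45 at 10 h. Both medians stood nearer their prophase level at 10 h than at 7 or 7.5 h, a single library with no test. The genes were chosen by their values in the 9 compared libraries, and that choice by itself favours such a return in another library. Of the genes called higher, 884 were still above all 5 prophase libraries at 10 h and 1026 were below all 4 division libraries. Of the genes called lower, 990 were below all prophase libraries at 10 h, 926 were above all division libraries and 602 lay within or above the prophase range. These counts at 10 h were not made over all tested genes. SPS4 stood at 364 at 5.25 h, 4585 at 6 h and 16982 at 10 h, and NDT80 at 68.3, 387 and 42.3. HOP1 was at 136, 60.6 and 6.76. In prophase itself, the 5 h library was the highest of the 5 in 370 of the genes called higher (26.7%), against 21.2% of all tested genes.

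**Figure D5:**
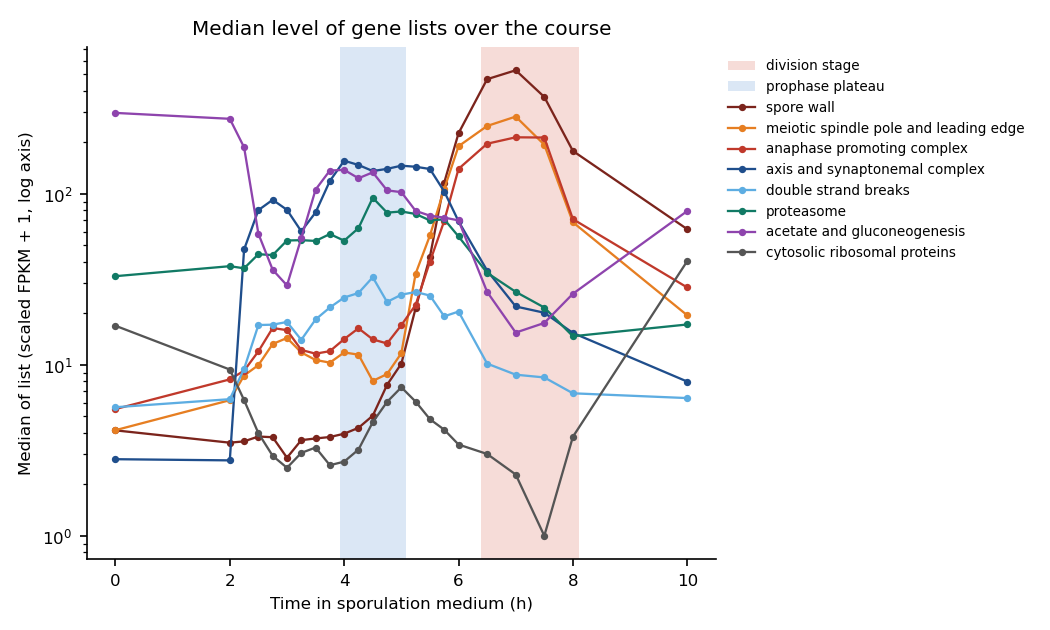
Median level of 8 gene lists (vertical log axis, scaled FPKM + 1) in each library over the course (horizontal axis, hours in sporulation medium); bands mark the division stage (red) and the prophase plateau (blue). The 3 division lists cross the recombination lists between 5 and 6.5 h, and the acetate and ribosomal protein lists stand higher again at 10 h.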

How the data were processed

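Per the labels' protocols, the 23 libraries hold total RNA (Ambion Ribopure kit) made into NuGEN Ovation Universal libraries with random hexamer primers. The authors deposited FPKM per gene with lower and upper bounds, per the file headers; Bowtie and Cufflinks 2.2.1 with the builds R64 and sacCer3 were used, per the submitters' processing notes. Not given in the sources used here are the Bowtie version, the annotation and the strand setting; antisense reads may therefore be counted to a gene. Each table had 7132 rows; 11 without an estimate and 254 that name no gene were left out, and 6867 were used. Of 6716 systematic identifiers, 6020 matched RefSeq.

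The fragments behind an FPKM were estimated by squaring 2 times the FPKM over the distance to its upper bound; this covers counting error only. FPKM was scaled by median of ratios and analysed as log2(scaled FPKM + 1), so changes of low genes are understated. Tests used lmFit and eBayes with trend from limma 3.58.1 (R 4.3.3), two-sided, on the 9 libraries, with Benjamini-Hochberg adjustment over 6440 genes; it was tested on simulated data. The 427 genes with a mean under 1 were not tested.

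The genes named are IME1, IME4, CUP1-1 and NDT80, then from the called genes of at least 300 bases with under 40% of their length under another row, no overlap between stages and a mean of at least 10 scaled FPKM in the higher stage, the 15 largest rises and 12 largest falls with a standard name and 4 each without, and then up to 4 called members of each of 27 lists in each direction. Not every such gene is described, and 1 list member is not reported here. Also named, chosen after their values were seen, are the stage markers, CLB2, SUM1, IME2, SPS100, the genes highest at 8 h and members set against their list. Members and lists were chosen with earlier results of these data known. Promoters were read from the RefSeq genome. Alternatives were other scalings, pseudocounts, filters, fits, library weights and leaving out each library.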

Additional observations from a re-analysis of the deposited data

Results flagged for a closer look

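Across the 177 genes checked in both stages, 24 values stood far from the other libraries of their stage, with chance flagging about 1 in 20 groups. The 8 h library holds 11 of them. It was low for NDT80 at 185 scaled FPKM beside 513 to 549 in the other division libraries, CDC10 at 196, CLB3 at 159.8, CLB5 at 35.5, CIN8 at 36.7, SPO20 at 354, RRT5 at 5658 and YEN1 at 6.37. It was high for ICS2 at 118 beside 6.78 to 11 and for SDD1 at 188 beside 24.1 to 33.3, and the only one above 0 for AIM11, at 1.96. ICS2 and SDD1 were among the genes checked because of their 8 h values, so their flags followed from that choice. At 6.5 h HSP42 was high at 88.0 and RPT4 at 15.2.

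In the prophase plateau, the 4 h library was high for IME4 at 877 beside 317 to 420.0 in the other prophase libraries, RIM4 at 1257, SMC1 at 64.1 and SAE2 at 11.9, and low for PRE9 at 20.5. At 4.25 h CDC27 was high at 40.4 and YAT2 at 309.9. At 4.5 h CIT2 was high at 862 beside 272 to 334, PUP1 at 115, TRX2 at 54.9 and HST1 at 63.6.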

How the results depend on the processing

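With FPKM as deposited, 571 genes were called higher and 3533 lower in the division stage, and with scaling by the summed FPKM of genes of at least 300 bases 618 and 3553, in place of 1388 and 1592. A pseudocount of 5 gave 942 genes called lower and a mean of at least 10 gave 869. Leaving out each library in turn gave 1264 to 1549 genes called higher and 1445 to 1900 lower, the highest of both without the 8 h library. Taking only 6.5 and 7 h as the division stage, an alternative chosen after seeing the data, gave 1573 and 1848. The other alternatives stayed within 1.5 times the main counts, and no gene was called in opposite directions under any of them. For 4 genes that were not called, the sign turned. The log2 change of CLB2 was −0.64 as deposited and −0.58 with summed scaling. The log2 change of CUP1-1 was −1.27 as deposited, −1.21 with summed scaling, −1.07 with quantile normalisation, −0.036 with library weights and −0.16 without the 4.5 h library, with 0.48 as the highest value when another library was left out. The log2 change of IME2 was −1.10, −1.03 and −0.76 as deposited, with summed scaling and with quantile normalisation. The log2 change of SUM1 was −0.92 as deposited, −0.86 with summed scaling, −0.0145 with library weights and −0.22 with 6.5 and 7 h alone. The cause was not tested. No paired analysis was possible because each library is a different time of the course and replicate numbers only name the libraries. The 7.5 h library, with 368883 implied fragments and 1287 genes at 0, limits what can be said of low genes.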
